A study of Mus musculus with 4 samples.

Results

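The intergenic CG losses 2 to 100 kb from genes are stretches of mouse DNA between protein-coding genes at which CG methylation was listed as lower in cortex with an Nsd1 conditional knockout than in control cortex. From the authors' deposited table of differentially methylated regions they were taken as the autosomal regions of the CG context with a lower mean in the knockout, a length under 500 bp, no overlap with a protein-coding gene, and a nearest protein-coding gene more than 2 kb and at most 100 kb away. This gave 17939 regions of 101350 in the table, or 40.5% of the autosomal CG losses. Whole-genome bisulfite sequencing was done on the somatosensory cortex of mice aged 2.5 months. The knockout (cKO, 2 libraries, genotype Nsd1Nex-cKO) was set against a control (Ctrl, 2 libraries, genotype Nsd1fl/+, which carries a floxed allele too). Nex (Neurod6) is expressed in excitatory neurons of the forebrain, and a Cre expressed under it leaves the gene in interneurons, glia and vessels, which the dissected tissue also holds. The labels do not say whether the control carries Cre, and the table holds no markers with which the tissue could be checked. A shift in the share of cell types and a change of methylation within cells cannot be told apart in these tissue means.

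Methylation of CG sites is copied at each cell division and is high over most of the mammalian genome, with low levels at active promoters and enhancers. NSD1 is a histone methyltransferase that places dimethylation on lysine 36 of histone H3, a mark spread over intergenic chromatin and gene bodies. The DNA methyltransferase DNMT3A binds this mark through its PWWP domain, and in neurons DNMT3A also places methylation outside CG sites after birth. DNA between genes holds the distal enhancers of neurons, at which the level of methylation differs between cell types.

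Each region has 1 mean per group in the table, with neither a value per library nor a depth. The members were chosen on the cKO to Ctrl contrast itself, so their levels are given as a description with no test, and the same holds for CHG and CHH methylation (H is A, C or T), which comes from the same libraries. Intervals on shares (95%, exact Clopper-Pearson) cover the counting of regions, which are not independent replicates. Of all CG regions in the table, 94.4% were lower in cKO, and of the 18044 autosomal CG regions under 500 bp in the same distance range 99.4% were, a share on which the choice of members rests. Nsd1 itself (chromosome 13, 55209782 to 55318325 in mm10) was the nearest gene of 0 members. Only 18.5 kb of DNA in the distance range is nearest to it, so few members could be found there. Inside the gene, 1 CG loss, 0 CG gains, 0 CHH losses and 5 CHH gains were listed. How much of the gene was removed cannot be read from methylation. All 17 regions listed on mitochondrial DNA were lower in cKO. The 10 in the CG context had a median of 0.613% in cKO and 5.18% in Ctrl, and the 4 in the CHH context a median of 0.488% in cKO and 6.38% in Ctrl. The part of this difference in the nuclear values was not tested.

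Sequence could be shown for members over the annotated starts of noncoding RNA genes, which are the intergenic stretches that the RefSeq promoter table (GRCm38.p6, the assembly of mm10) covers. There, 206 of the 17939 members (1.15%, interval 0.998% to 1.32%) overlapped the 300-base start windows of 199 genes, all 199 of them long noncoding RNAs (lncRNAs). The following 6 are those with the largest area statistic among members that share at least 200 bases with such a window, chosen after values were seen. They show how the CG sites of such losses are spaced. Each line gives the stretch shared by member and window, 5′ to 3′ on the strand of the lncRNA, with CG dinucleotides in capitals.
Gm34424: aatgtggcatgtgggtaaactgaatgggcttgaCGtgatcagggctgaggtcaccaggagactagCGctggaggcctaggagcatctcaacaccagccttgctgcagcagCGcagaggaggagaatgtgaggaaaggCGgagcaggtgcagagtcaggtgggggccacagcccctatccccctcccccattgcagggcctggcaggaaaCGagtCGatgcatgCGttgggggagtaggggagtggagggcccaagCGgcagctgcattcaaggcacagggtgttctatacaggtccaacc
Gm41562: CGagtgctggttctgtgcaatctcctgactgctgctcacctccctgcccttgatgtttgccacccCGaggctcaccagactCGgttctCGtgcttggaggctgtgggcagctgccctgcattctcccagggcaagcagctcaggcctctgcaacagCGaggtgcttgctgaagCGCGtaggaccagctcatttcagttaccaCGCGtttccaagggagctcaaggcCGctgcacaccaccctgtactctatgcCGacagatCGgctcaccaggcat
Gm31954: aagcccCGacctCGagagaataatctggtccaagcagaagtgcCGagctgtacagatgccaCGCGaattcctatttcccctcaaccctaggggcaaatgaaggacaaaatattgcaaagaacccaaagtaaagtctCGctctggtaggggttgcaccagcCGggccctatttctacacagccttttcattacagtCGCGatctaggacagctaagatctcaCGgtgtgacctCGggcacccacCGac
Gm39683: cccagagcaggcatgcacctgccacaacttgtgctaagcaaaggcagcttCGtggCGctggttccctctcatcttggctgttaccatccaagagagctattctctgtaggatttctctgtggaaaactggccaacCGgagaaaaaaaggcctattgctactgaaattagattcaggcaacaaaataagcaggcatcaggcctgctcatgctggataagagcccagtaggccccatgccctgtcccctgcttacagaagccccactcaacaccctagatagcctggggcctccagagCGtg
2810048H02Rik: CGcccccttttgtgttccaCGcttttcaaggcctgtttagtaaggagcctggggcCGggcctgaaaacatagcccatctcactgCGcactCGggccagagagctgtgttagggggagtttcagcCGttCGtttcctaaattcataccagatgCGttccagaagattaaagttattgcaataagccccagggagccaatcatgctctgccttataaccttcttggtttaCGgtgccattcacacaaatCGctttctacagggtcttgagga
Gm12121: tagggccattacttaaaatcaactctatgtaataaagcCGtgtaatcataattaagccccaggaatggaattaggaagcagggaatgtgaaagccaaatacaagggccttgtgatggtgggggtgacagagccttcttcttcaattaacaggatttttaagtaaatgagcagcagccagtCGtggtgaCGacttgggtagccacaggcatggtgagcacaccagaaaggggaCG

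The start of Gm34424 (chr9:61509464-61509763, plus strand, 8 CG dinucleotides) lay in a member of 460 bp at 30.9% in cKO and 59.8% in Ctrl, 90.9 kb from Tle3, a Groucho-type corepressor. The stretch of Gm41562 (chr17:30945559-30945834, plus strand, 12 CG dinucleotides) lay in a member at 42.3% in cKO and 69.5% in Ctrl. The stretch of Gm31954 (chr11:68399157-68399403, plus strand, 12 CG dinucleotides) lay in a member at 29.0% in cKO and 56.6% in Ctrl. This member was 12.1 kb from Ntn1, the axon guidance cue netrin 1. In these 3 members the level in cKO was below that in Ctrl by less than the median of all members, with differences of -28.8, -27.2 and -27.7 points. The stretch of Gm39683 (chr1:156748624-156748923, plus strand) holds 4 CG dinucleotides, in a member at 39.0% in cKO and 72.3% in Ctrl. The stretch of 2810048H02Rik (chr6:117151612-117151881, minus strand, 10 CG dinucleotides) lay in a member at 33.0% in cKO and 69.1% in Ctrl. This member was 16.7 kb from Cxcl12, a chemokine that guides migrating interneurons. The stretch of Gm12121 (chr11:34139524-34139757, plus strand, 4 CG dinucleotides) lay in a member at 38.1% in cKO and 80.2% in Ctrl. Its difference of -42.0 points was the largest of the 6. In 4 of the 6, those of Gm34424, Gm39683, 2810048H02Rik and Gm12121, a CHH region lower in cKO lay within 1 kb.

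These sequences also show what the table's number of cytosines counts. Among 216 CG regions lying wholly inside a start window, the deposited number was exactly 2 per CG dinucleotide in 105 and 1 more than that in 98, as when a region begins or ends inside a dinucleotide. Cytosines of both strands were therefore counted, and a region with 4 cytosines, the fewest in the table, has about 2 CG sites. The members had a median of 9 cytosines (quartiles 6 and 12) over a median length of 118 bp (quartiles 82 and 193). Of all members, 1263 (7.04%) had 4 cytosines, and 1308 (7.29%) had at least 20.

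CG methylation in the intergenic losses was intermediate in cKO where it was high in Ctrl. The median level was 43.1% in cKO (quartiles 32.2% and 53.8%) and 76.4% in Ctrl (quartiles 66.1% and 84.5%). The median difference was -31.0 points (quartiles -35.6 and -26.7). Measured against its own control level, the median member was lower by 43.0%. Levels below 20% in cKO were found in 1144 members (6.38%), and 532 members (2.97%) kept at least 70% in cKO. In Ctrl, 16938 members (94.4%) were at 50% or more. A difference beyond 40 points was listed for 1783 members (9.94%), and one beyond 50 points for 82 (0.457%).

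**Figure D1:**
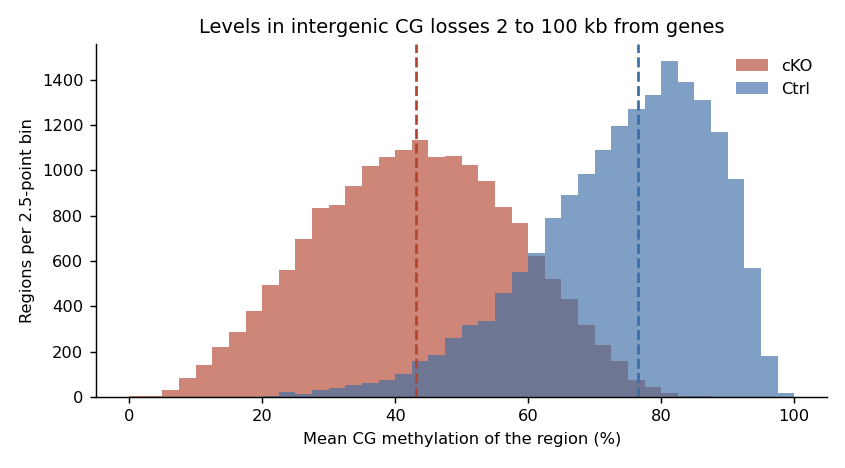
Number of intergenic CG losses (y axis) by the mean CG methylation of the region in percent (x axis), in cKO and in Ctrl, with dashed lines at the medians. The cKO levels centre on 43.1% and the Ctrl levels on 76.4%, and most cKO levels lie between those of unmethylated and fully methylated DNA.

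The order of members by level was largely kept between cKO and Ctrl, with a Spearman correlation of 0.90 across the 17939 regions, which share libraries. Members were chosen on the difference, whose quartiles (-35.6 and -26.7 points) lie close together beside the range of levels. A high correlation follows in large part from that. The 7083 members with Ctrl levels of at least 80% had a median of 56.1% in cKO and 86.2% in Ctrl. The 8193 members between 60% and 80% in Ctrl had 38.4% in cKO and 71.9% in Ctrl. The 2366 members between 40% and 60% had 22.9% in cKO and 53.8% in Ctrl, and the 297 members below 40% had 11.6% in cKO and 34.4% in Ctrl. In points, the median difference was -29.8 in the most methylated class, -32.6 at 60% to 80%, -29.4 at 40% to 60% and -21.2 below 40%. As a share of the control level, the median decrease was 34.6%, 45.9%, 56.5% and 65.6% in the same classes, smallest in the most methylated members and largest in the least methylated. These splits use the control value that also enters the difference. With differences of similar size in points, a larger share lost at lower control levels follows in part from the choice of members.

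Members with fewer CG cytosines per length had larger differences. The density is given as CG cytosines of both strands per 100 bp of region, with a median of 7.35 (quartiles 5.41 and 9.57). The 1800 members under 4 per 100 bp had a median level of 41.4% in cKO and 78.9% in Ctrl, a difference of -36.7 points. The 1862 members with 12 or more had 47.1% in cKO and 75.2% in Ctrl, a difference of -25.4 points. The Spearman correlation between density and difference was 0.50 across members. Density also moved with length, from a median of 4.58 per 100 bp in members of 300 bp or more to 8.97 in those under 100 bp. The median difference was -34.8 points in members of 300 bp or more and -29.3 in those under 100 bp. By number of cytosines it was -32.2 points with 4 or 5 and -30.7 with 20 or more. The rule by which regions were listed is not known, and its part in these relations was not tested.

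**Figure D2:**
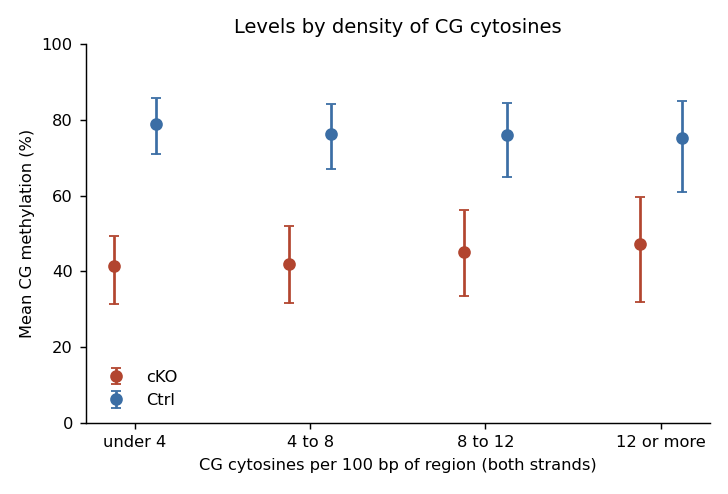
Mean CG methylation in percent (y axis) of the intergenic CG losses grouped by the number of CG cytosines per 100 bp of region (x axis), as medians with bars from the lower to the upper quartile, for cKO and Ctrl. Levels in cKO lie between 41.4% and 47.1% and those in Ctrl between 75.2% and 78.9%, with the widest gap at the lowest density.

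Along the genome, the losses were spread over the whole range of distances, with fewer per length of DNA close to genes. Autosomal DNA 2 to 100 kb from a protein-coding gene came to 699.6 Mb and held 25.6 members per Mb. The density was 20.4 per Mb at 2 to 5 kb, 23.6 at 5 to 10 kb, 25.5 at 10 to 20 kb, 27.6 at 20 to 50 kb and 26.6 at 50 to 100 kb. Outside this range, CG losses under 500 bp had 13.3 per Mb inside protein-coding genes, 21.9 within 2 kb of them and 14.7 beyond 100 kb. No test was made of these densities, which were not corrected for the number of CG sites or for sequence to which reads cannot be mapped. Levels were nearly flat over distance, since medians in cKO ran from 42.8% to 44.0% and in Ctrl from 76.2% to 77.04% over the 5 distance bins.

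CG regions higher in cKO were rare in the same intervals. The table lists 105 of them, or 0.582% of the CG regions 2 to 100 kb from a gene (interval 0.476% to 0.704%), against 15.3% inside protein-coding genes (14.7% to 15.9%). The share was 3.75% within 2 kb, 1.34% at 2 to 5 kb (0.830% to 2.04%) and 0.350% at 5 to 10 kb (0.151% to 0.688%). At the larger distances it lay between 0.451% and 0.678%, and beyond 100 kb it was 0.626%. The 105 gains had a median of 81.1% in cKO and 51.4% in Ctrl. A gain lay within 1 kb of 4 members.

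**Figure D3:**
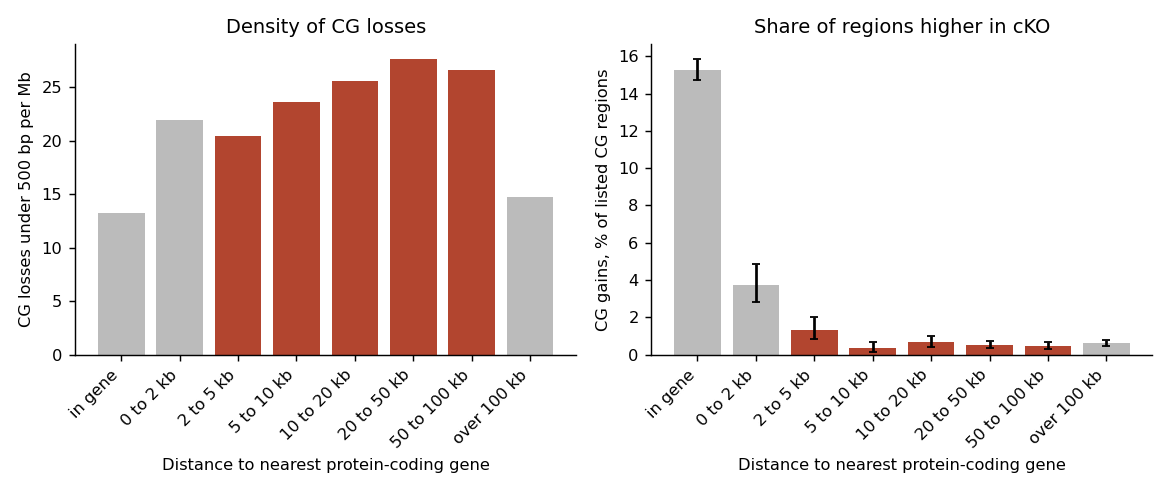
Left, CG losses under 500 bp per Mb of autosomal DNA (y axis) by distance to the nearest protein-coding gene (x axis). Right, CG regions higher in cKO as a percent of all listed CG regions under 500 bp, with exact 95% binomial intervals; the coloured bars are the range from 2 to 100 kb, where losses run from 20.4 to 27.6 per Mb and gains make up 0.350% to 1.34%.

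Over the 19 autosomes the density ran from 15.6 members per Mb of such DNA on chromosome 7 to 32.9 on chromosome 11, and the median difference from -31.5 to -30.5 points. For 13844 members the strand of the nearest gene could be taken from the promoter table. Of these, 7509 (54.2%, interval 53.4% to 55.1%) lay upstream of the gene and 6335 downstream. The 4095 members without a strand for their gene were left out. How much of this DNA lies upstream of genes was not measured, so the share has no background beside it. Levels were alike on both sides, at 43.2% in cKO and 76.7% in Ctrl upstream and 42.9% in cKO and 76.1% in Ctrl downstream. A lncRNA gene was overlapped by 3459 members (19.3%), and lncRNA genes cover 13.5% of this DNA. Pseudogenes were overlapped by 140 members (0.780%) and cover 1.99% of it.

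The 206 members at lncRNA starts had a median of 36.9% in cKO (quartiles 26.7% and 49.4%) and 70.2% in Ctrl (quartiles 59.4% and 80.7%). Short motifs were searched on both strands in the 101 start windows that shared at least 100 bases with a member. CAGATG, an E-box core of the kind bound by proneural and NeuroD factors, was present in 34 of 101 (33.7%, interval 24.6% to 43.8%), against 21.8% of 11210 other noncoding windows and 17.2% of all 31396 windows. The windows with a member held a median of 6 CG dinucleotides, the other noncoding windows 4 and all windows 7. The sets were not matched for base content. The 206 members overlapped 230 windows of 199 genes, so a gene can count more than once. The interval treats windows as independent, and whether the shares differ was not tested. CACGTG was present in 6.93% of the windows with a member and in 5.82% of the other noncoding ones. TGANTCA, the core read by AP-1, was present in 6.93% of the windows with a member and 9.27% of the other noncoding ones, and the palindromic core of the MEF2 site in 1.98% and 4.09%. TGACGTCA, the cAMP response element, was in 0 of 101 windows with a member and in 0.999% of the other noncoding ones, and the core of the CTCF site in 0 of 101 and in 0.0892%. The motifs do not contain each other. A match is a description of the letters and not a binding site.

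CHH regions lower in cKO stood near some of the members. In cortical neurons CHH methylation is placed by DNMT3A after birth. A CHH region lower in cKO lay within 1 kb of 3971 members (22.1%, interval 21.5% to 22.8%), beside a background of 22.1% in the other 26305 autosomal CG losses, which include regions of 500 bp or more. By overlap the share was 4.56% in the members and 5.74% in the other losses, and within 5 kb it was 44.6% in the members and 41.05% in the other losses. Among CG losses of the members' length, under 500 bp, the share within 1 kb was 19.5% in protein-coding genes (18.8% to 20.1%), 18.4% within 2 kb of genes (16.4% to 20.6%), and 22.5% beyond 100 kb (21.7% to 23.3%). For the 840 losses of 500 bp or more in the same distance range as the members it was 37.9% (34.6% to 41.2%). Of the 105 CG gains in the same distance range, 2 had such a region within 1 kb (1.90%, interval 0.232% to 6.71%). CHH regions higher in cKO lay within 1 kb of 8 members (0.0446%), against a background of 0.0646%.

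The 4004 CHH losses within 1 kb of a member had a median of 0.981% in cKO and 5.45% in Ctrl, a difference of -4.39 points. The other 41008 CHH losses in the table had 1.02% in cKO and 5.53% in Ctrl. The mitochondrial CHH regions, at 0.488% in cKO and 6.38% in Ctrl, differed by a median of -5.87 points, more than these. Members with a CHH loss within 1 kb had a median CG level of 41.7% in cKO and 76.3% in Ctrl, and those without had 43.5% in cKO and 76.5% in Ctrl. They were longer, at a median of 136 bp against 114 bp, and the share with a CHH loss was 31.7% among members of 300 bp or more and 18.9% among those under 100 bp. CHG regions lower in cKO lay within 1 kb of 40 members (0.223%, interval 0.159% to 0.304%), beside 83 of the 26305 other losses (0.316%, interval 0.251% to 0.391%).

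**Figure D4:**
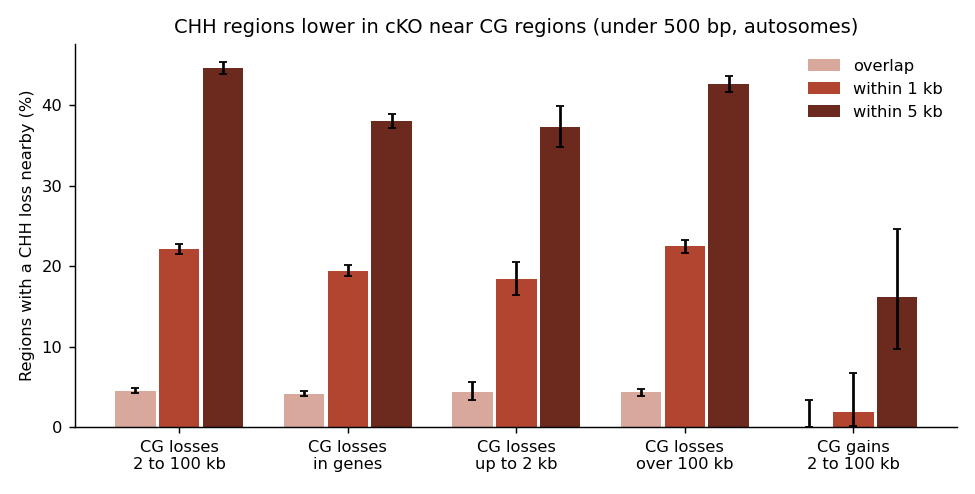
Share of autosomal CG regions under 500 bp (y axis, percent) with a CHH region lower in cKO overlapping, within 1 kb or within 5 kb, by class of CG region, with exact 95% binomial intervals. For the intergenic losses the bars stand at 4.56%, 22.1% and 44.6%, and within 1 kb the 4 classes of CG loss lie between 18.4% and 22.5%, while the CG gains stand at 1.90%.

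Members were grouped by the gap to the next member. With a gap of at most 5 kb, 9266 members (51.7%) were in a group of at least 2, and 172 groups had 5 or more. The same share was not computed for other CG losses or for regions placed at random, so it has no background. The largest group, of 14 members in 17.5 kb (chromosome 5, 33688449 to 33705969), lies between Tacc3, a spindle protein, and Fgfr3, a fibroblast growth factor receptor of astrocytes and their precursors. Its members lay between 14.2% and 59.7% in cKO (median 30.9%) and between 38.9% and 83.4% in Ctrl (median 71.4%). A CHH loss lay within 1 kb of 6 of the 14, among them the 4 closest to Fgfr3. The member with the most cytosines in it (33692519 to 33692848, 44 cytosines) had 14.2% in cKO and 38.9% in Ctrl. The next group, of 11 members in 21.1 kb upstream of Crhr1, the receptor for corticotropin-releasing hormone, had a median of 41.9% in cKO and 75.1% in Ctrl.

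In these rankings members whose nearest gene is a predicted model were passed over. In the authors' deposited table the member with the largest area statistic lay 71.1 kb downstream of Uncx, a homeobox transcription factor (chromosome 5, 139619328 to 139619758, 68 cytosines), at 22.5% in cKO and 60.1% in Ctrl. The next, 12.8 kb downstream of the chemokine gene Cxcl13, had 18.9% in cKO and 47.2% in Ctrl over 63 cytosines, with a CHH region at 1.12% in cKO and 10.8% in Ctrl 749 bp away. The member 11.1 kb downstream of Cfap77, a cilium protein, had 16.3% in cKO and 58.0% in Ctrl over 54 cytosines. It overlapped a CHH region at 0.974% in cKO and 6.08% in Ctrl. With Zfp791 these 3 have the most cytosines among members whose nearest gene is not a predicted model; over all members the number reached 76. The Cxcl13 and Nupl2 members overlap the pseudogenes Gm7993 and Gm43828, where reads may be shared with a near copy.

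A member 52.9 kb from Hes1, the Notch effector that keeps progenitors from differentiating, stood at 26.04% in cKO and 61.7% in Ctrl (chromosome 16, 30120707 to 30121120, 52 cytosines). The member 48.4 kb from Rybp, a subunit of Polycomb repressive complex 1, had 15.9% in cKO and 55.6% in Ctrl. Next to Eif4e, the cap-binding translation factor, the level was 24.6% in cKO and 67.0% in Ctrl at 84.1 kb. For Disc1, a neuronal scaffold protein, it was 34.6% in cKO and 62.3% in Ctrl at 70.9 kb. The member nearest to Fam53a stood at 19.5% in cKO and 49.9% in Ctrl. Others among the first 12 stayed high in cKO: Zfp791, a zinc finger gene, with 71.3% in cKO and 94.6% in Ctrl, Melk, a cell cycle kinase, with 62.8% in cKO and 88.2% in Ctrl, and Nupl2, a nucleoporin, with 54.7% in cKO and 92.4% in Ctrl. Poll, a DNA repair polymerase, closed the 12 with 47.8% in cKO and 81.6% in Ctrl, 2.81 kb from the gene. Over the 12, levels lay between 15.9% and 71.3% in cKO and between 47.2% and 94.6% in Ctrl.

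Among members with at least 10 cytosines, the authors' deposited table gives the largest difference, -58.0 points, 41.6 kb upstream of Arhgap21, a regulator of small GTPases (chromosome 2, 21010267 to 21010576), at 21.1% in cKO and 79.1% in Ctrl. Lonrf1 followed with 29.4% in cKO and 84.0% in Ctrl, then Ywhaz, a 14-3-3 adaptor protein, with 26.1% in cKO and 80.7% in Ctrl. Rps6ka4, a kinase that phosphorylates histone H3 and CREB, had 28.6% in cKO and 83.1% in Ctrl. Magi3, a scaffold protein of cell junctions, had 38.0% in cKO and 91.5% in Ctrl. A member 33.1 kb from Cadm1, a synaptic adhesion molecule, had 25.9% in cKO and 78.9% in Ctrl, next to a CHH region at 1.26% in cKO and 5.71% in Ctrl. Barx1, a homeobox factor of craniofacial and stomach development, had 37.8% in cKO and 90.5% in Ctrl. Mycn, a transcription factor of proliferating progenitors, had 28.2% in cKO and 80.6% in Ctrl. All 8 had Ctrl levels of 78.9% or more.

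At the other end, the smallest difference among members in the authors' deposited table was -4.66 points, in 97 bp of chromosome 1 (24612977 to 24613073) 25.1 kb upstream of Col19a1, a collagen gene. Its CG level was 0.836% in cKO and 5.499% in Ctrl, and an overlapping CHH region of 456 cytosines had 0.620% in cKO and 9.95% in Ctrl. These levels are close to those of the mitochondrial CG regions, at 0.613% in cKO and 5.18% in Ctrl. The next smallest difference, near Hnmt, a histamine-degrading enzyme, was between 90.1% in cKO and 96.6% in Ctrl.

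Of 20560 autosomal protein-coding genes, 5691 were the nearest gene of at least 1 member, a background of 27.7%. The median such gene had 2 members, 2151 had 1, and 252 genes with 10 or more held 3176 members (17.7%). A gene with more free DNA around it can hold more members, with a Spearman correlation of 0.55 between the number of members and the length of DNA in the distance range that is nearest to the gene. The mean over all of this DNA was 2.56 members per 100 kb.

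Zswim6, a zinc finger protein in which mutations cause disorders of brain development, had the most, with 31 members, and in the ranking that follows predicted gene models were passed over. Of the 31, 20 lay upstream and 11 downstream, between 5.58 and 93.0 kb from the gene. Their levels lay between 9.97% and 65.5% in cKO (median 39.1%) and between 26.3% and 90.6% in Ctrl (median 72.9%), at 17.9 members per 100 kb, and 0 CG regions were listed inside the gene. The lowest pair of levels there, 9.97% in cKO and 26.3% in Ctrl, belonged to a member 78161 bp downstream. Nectin1, a cell adhesion molecule, had 27 members with medians of 43.7% in cKO and 76.7% in Ctrl, and a CHH loss lay within 1 kb of 21 of them. Cadm1 had 23 members at 49.1% in cKO and 83.9% in Ctrl, 17 of them with a CHH loss nearby. Enc1, an actin-binding protein of developing cortex, also had 23, at 45.9% in cKO and 78.5% in Ctrl, with a CHH loss near 1. The genes with most members thus differed in how often CHH losses stood beside them.

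Mycn had 22 members, with medians of 37.7% in cKO and 74.4% in Ctrl. Dyrk2, a protein kinase, had 21 at 48.2% in cKO and 80.3% in Ctrl, and Zfp608, a zinc finger protein, 21 at 40.3% in cKO and 77.1% in Ctrl. Irs2, an adaptor of insulin signalling, had 20 at 37.0% in cKO and 69.8% in Ctrl. Ranked by members per 100 kb among genes with at least 10, other genes came first, and the first 8 of both rankings share 0 genes. Cdh22, a brain cadherin, led with 35.4 per 100 kb, from 13 members at 34.0% in cKO and 69.0% in Ctrl. Lpar3, a lysophosphatidic acid receptor, followed with 22.1, Rab4a, a GTPase of endosome recycling, with 21.7, and Ntng2, a netrin-like synaptic adhesion protein, with 21.4. Cplx2, a regulator of synaptic vesicle release, had 14 members at 40.4% in cKO and 72.1% in Ctrl, and Fzd2, a Wnt receptor, 10 at 26.4% in cKO and 62.6% in Ctrl. This second ranking was chosen after values were seen.

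**Figure D5:**
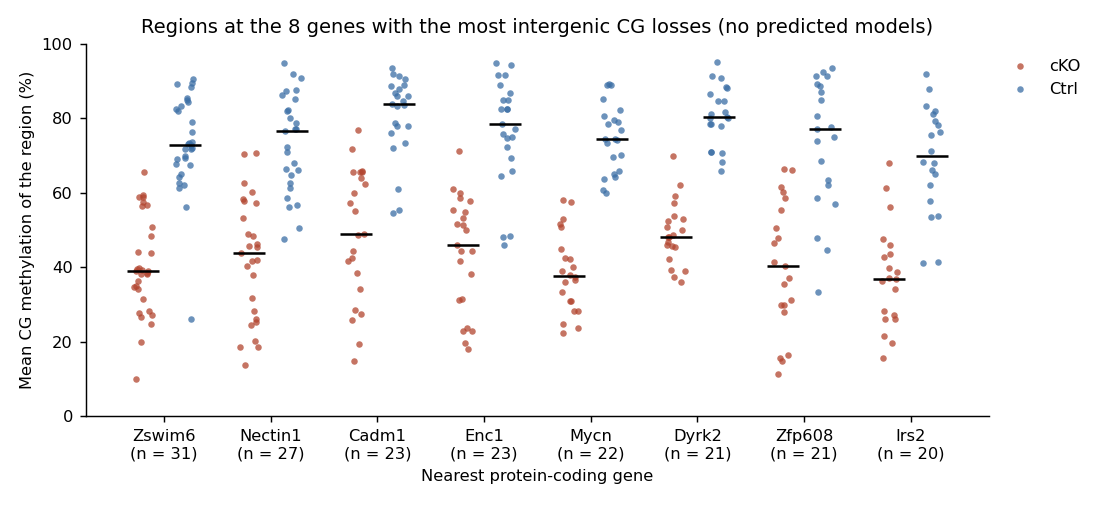
Mean CG methylation in percent (y axis) of each intergenic CG loss at the 8 genes that are nearest to the most members, predicted gene models passed over (x axis, with the number of members), in cKO (left of each pair) and Ctrl, with lines at the medians. Medians lie between 37.0% and 49.1% in cKO and between 69.8% and 83.9% in Ctrl, and single regions range from 9.97% to 76.8% in cKO.

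Genes flanked by intergenic losses more often carried listed regions of either direction inside than genes with no member. A CG gain in the body was listed for 1555 genes, a background of 7.56% of genes for such a gain. Of these 1555 genes, 781 (50.2%) were the nearest gene of a member, against a background of 27.7% of all genes. Among the 1239 genes with 5 or more members, 17.5% had a CG gain in the body and 31.1% a CHH gain (background 15.5%). Among the 14869 genes with no member these shares were 5.21% and 11.3%. Losses inside the gene differed in the same way, with a CG loss in 40.1% and a CHH loss in 29.1% of the genes with 5 or more members, and in 13.5% and 11.7% of those with none. The genes also differed in size, with a median length of 45.1 kb for those with 5 or more members and 14.0 kb for those with none. The DNA in the distance range nearest to them had medians of 100.7 kb and 7.4 kb. Of the 20560 autosomal protein-coding genes, 17370 had any such DNA, and a gene without it could have no member. Neither gene length nor this DNA was held constant. Zeb2, a transcription factor of neuronal migration, had 13 CG gains and 0 CG losses in its body and 10 members upstream, at 43.3% in cKO and 77.6% in Ctrl. Atxn1, a transcriptional corepressor, had 11 gains inside and 13 members outside, at 50.4% in cKO and 75.7% in Ctrl. Ntrk2, the BDNF receptor TrkB, had 5 gains and 0 losses inside and 14 members at 43.9% in cKO and 75.1% in Ctrl. Arid1b, a subunit of the BAF chromatin remodelling complex, had 5 gains inside and 11 members at 48.2% in cKO and 79.3% in Ctrl.

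The gene lists were described by how many of their autosomal genes were the nearest gene of a member, beside the background of 27.7%. The share does not adjust for the DNA around the genes, for which the members per 100 kb are given beside the mean of 2.56. Over the 12 lists the median difference of their members ran from -34.2 to -27.5 points, around the -31.0 of all members. For each gene named below, the member that leads is the one with the largest area statistic, which need not have the largest difference.

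Of the axon guidance genes, 33 of 37 (89.2%) had a member, with 3.59 members per 100 kb and medians of 44.6% in cKO and 77.3% in Ctrl. Ephb1, an ephrin receptor, had 15, of which that with the largest area statistic stood at 24.3% in cKO and 63.9% in Ctrl. Unc5a, a netrin receptor, had 13, led by one at 44.1% in cKO and 81.4% in Ctrl. Sema6a, a semaphorin, had 12, led by one at 35.9% in cKO and 78.1% in Ctrl. Of the synaptic adhesion genes, 27 of 43 (62.8%) had a member, at 2.22 per 100 kb. After Cadm1 these were led by Igsf21 with 14 members and Adgrl2, a latrophilin, with 12. The Igsf21 member with the largest area statistic had 37.7% in cKO and 65.1% in Ctrl. That of Adgrl2 had 23.5% in cKO and 53.3% in Ctrl.

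Of the activity-regulated genes, which neurons transcribe after stimulation, 21 of 30 had a member, at 3.96 per 100 kb and medians of 42.8% in cKO and 76.3% in Ctrl. Nptx2, a secreted protein that clusters AMPA receptors, had 12 members, and Jun, a subunit of AP-1, and Sik1, a kinase that restrains CREB coactivators, had 10 each. The member of Sik1 with the largest area statistic stood at 27.2% in cKO and 73.5% in Ctrl, 50.2 kb from the gene. That of Jun had 44.5% in cKO and 75.6% in Ctrl, and that of Nptx2 54.1% in cKO and 83.9% in Ctrl.

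Of the deep layer identity genes 15 of 21 (71.4%) and of the upper layer identity genes 14 of 19 (73.7%) had a member, at 2.33 and 2.28 per 100 kb, below the mean over all such DNA. Sox5, a transcription factor of deep layer neurons, had 11, led by one at 45.8% in cKO and 79.8% in Ctrl, 97.7 kb upstream. Nfib, a nuclear factor I transcription factor, had 8, led by one at 43.3% in cKO and 80.8% in Ctrl. Tle4, a corepressor of corticothalamic neurons, also had 8, led by one at 60.2% in cKO and 93.7% in Ctrl. Lmo4, a LIM protein that patterns the cortex, had 15, led by one at 35.4% in cKO and 70.1% in Ctrl. Lhx2, a LIM homeobox factor of cortical identity, had 9, led by one at 41.6% in cKO and 76.2% in Ctrl, and Pou3f1 had 5.

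Of the developmental transcription factors of other lineages, 47 of 70 (67.1%) had a member, at 2.72 per 100 kb. Their 157 members had medians of 36.6% in cKO and 71.1% in Ctrl, both lower than in the members as a whole. Of the 157, 36.9% had a CHH loss within 1 kb, beside 22.1% in all members. Pitx1, a hindlimb factor, had 12, led by one at 48.0% in cKO and 81.3% in Ctrl. Twist2, a factor of mesenchyme, had 10, led by one at 43.7% in cKO and 76.6% in Ctrl. Gsc, a factor of the embryonic organizer, had 9, led by one at 36.4% in cKO and 72.7% in Ctrl.

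Among genes of other cells in the tissue, 15 of 27 interneuron identity genes (55.6%) had a member, at 2.26 per 100 kb. The share of members with a CHH loss within 1 kb was 41.2% of 51 for the interneuron and 37.0% of 46 for the astrocyte list. It was 33.3% of 24 for the oligodendrocyte, 30.4% of 23 for the microglia and 18.8% of 16 for the endothelial and mural list. In all members it was 22.1%, and no intervals were computed for the lists. Shares above 22.1% were also found for synaptic adhesion (32.03%), deep layer (26.98%) and axon guidance genes (26.7%). Activity-regulated genes (21.1%) and enzymes and readers of methylation (18.2%) were below it, and upper layer genes were lower still. Dlx2, a homeobox factor of interneuron precursors, had 10 members, led by one at 51.2% in cKO and 75.4% in Ctrl. Npy, a neuropeptide of interneurons, had 9, led by one at 42.0% in cKO and 90.7% in Ctrl, 44.97 kb upstream. Of the astrocyte markers 13 of 16 (81.2%) had a member, at 3.75 per 100 kb, with 10 for the glutamate transporter Slc1a3, led by one at 44.2% in cKO and 80.03% in Ctrl. Of the microglia markers 8 of 16 did, at 3.65 per 100 kb, led by Sall1 with 9. The Sall1 member with the largest area statistic had 48.7% in cKO and 83.7% in Ctrl. Of the oligodendrocyte lineage markers 7 of 17 (41.2%) had a member, at 3.10 per 100 kb. Mobp, a myelin protein, and the transcription factor Olig1 had 6 each. The Olig1 member with the largest area statistic had 27.8% in cKO and 47.3% in Ctrl. Of the endothelial and mural markers 6 of 16 (37.5%) had a member, at 1.87 per 100 kb, led by the vascular cadherin Cdh5 with 6. The Cdh5 member with the largest area statistic had 53.2% in cKO and 89.3% in Ctrl. The part of cell composition in these values was not tested.

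Of the enzymes and readers of DNA methylation and H3K36 methylation, 9 of 29 (31.0%) had a member, close to the background of 27.7%, at 3.12 members per 100 kb. Mbd2, a methyl-CpG binding protein, had 9, led by one 3.14 kb away at 49.3% in cKO and 77.2% in Ctrl. Dnmt3b, a de novo DNA methyltransferase, had 4, led by one at 25.3% in cKO and 79.7% in Ctrl that overlaps the pseudogene Dnmt3b-ps1, and Setmar had 3.

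Regions lay just inside and just outside the distance and length limits of the rule. The few given here for each side do not show whether levels change across a limit. The members nearest to the 2 kb limit, at 2001 bp from Zfp395 and 2009 bp from Wbp1l, had 39.8% in cKO and 77.3% in Ctrl and 33.6% in cKO and 81.1% in Ctrl, and the losses just nearer, at 1999 bp from Krtap28-13 and 1998 bp from Kndc1, had 55.7% in cKO and 84.8% in Ctrl and 55.7% in cKO and 82.8% in Ctrl. At the 100 kb limit, the members at 99986 bp from Bub3 and 99977 bp from Lyplal1 had 53.9% in cKO and 79.1% in Ctrl and 19.0% in cKO and 62.7% in Ctrl. The losses just beyond, at 100003 bp from Slc13a1 and 100015 bp from Cntnap4, had 56.0% in cKO and 80.6% in Ctrl and 54.1% in cKO and 86.6% in Ctrl. Both longest members had 499 bp (18.6% in cKO and 59.4% in Ctrl near Phlpp1, 59.5% in cKO and 87.4% in Ctrl near Kif14), and the shortest losses left out for their length had 500 bp (17.2% in cKO and 62.6% in Ctrl near Heatr5a, 34.5% in cKO and 65.8% in Ctrl near Gm9195). The 840 longer losses in the same distance range had medians of 36.1% in cKO and 74.1% in Ctrl. The gains nearest to a difference of 0 had 95.4% in cKO and 85.9% in Ctrl near Galnt7 and 91.9% in cKO and 80.3% in Ctrl near Ywhaz.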

How the data were processed

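DNA from somatosensory cortex was extracted with CTAB, sheared, bisulfite-treated and amplified by PCR, per the labels' protocols; CASAVA, Bowtie2 and the build mm10 are named in the submitters' processing notes, without versions or roles. The caller of regions, its thresholds, the coverage and how replicates entered were not given in the sources used here. Nothing in the labels says whether replicates are separate animals. The authors' deposited table holds called regions only, each with a mean methylation fraction per group (printed as a percent), their difference (cKO minus Ctrl) and an area statistic, a score with no fixed range used here to rank regions. Depth is unknown, so unequal coverage would enter the means unseen. Bisulfite errors would enter them too. All 17 listed mitochondrial regions were lower in cKO, and the part of such errors in these or in the nuclear means was not tested.

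Genes were placed by RefSeq, assembly GRCm38.p6 (49657 genes, 21792 protein-coding), leaving out genes listed in the first 3 Mb of a chromosome, an assembly gap. Distance is the difference of coordinates to the nearest gene end. Strand came from the RefSeq promoter table (250 bases before to 50 after each start), which has none for 4300 protein-coding genes. DNA per distance class was measured on a grid of 100 bp from 3 Mb to the last listed feature. Distance and overlap steps were checked on simulated data against bedtools 2.31.1; pandas 2.3.3 and scipy 1.17.1 were used. Members, the 12 gene lists (342 of 343 genes matched) and rules were chosen with earlier results of these data known. Named regions are, by nearest gene with predicted models passed over, the 12 with the largest area statistic, the 8 that differ most among those of 10 or more cytosines, the 4 with the most cytosines, the 8 genes with the most members, up to 3 genes per list, and members at each limit. The sequences shown were chosen after values were seen, since no genome was used here, and none is from chromosome 18.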

Additional observations from a re-analysis of the deposited data

How the results depend on the processing

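The number of members stayed within 1.5 times of 17939, from 13085 to 22498, under 5 kb as lower limit, 50 or 200 kb as upper limit, no length limit, the X included, noncoding genes counted as genes, or genes in the first 3 Mb kept. It was 10001 when the difference had to reach 30 points, 8184 with at least 10 cytosines and 1308 with at least 20, a limit added after the data were seen. The median difference was -30.8 points with 50 kb, -31.1 with 200 kb, -31.2 without length limit, -31.3 with noncoding genes, -35.0 at 30 points, -30.2 with 10 cytosines and -30.7 with 20, against -31.0. The median in cKO was 42.7% without length limit and with noncoding genes alike, 39.0% at 30 points, 41.7% with 10 cytosines and 37.4% with 20, against 43.1%. The median in Ctrl was 75.5% at 30 points, 74.6% with 10 cytosines and 70.7% with 20, against 76.4%. CHH losses lay at 4.56% of members by overlap and 44.6% within 5 kb, and CHH gains at 0 by overlap and 0.385% within 5 kb. With 1 vote per gene, 2384 genes had more members upstream and 1813 more downstream, so 56.8% of these genes were mostly upstream. The 222 genes with equal numbers were left out. The share in groups was 37.0% with gaps of 2 kb and 64.9% with 10 kb. Any gene within 100 kb, in place of the nearest, gave 57.3% of genes. Motifs in windows of other sizes and CpG density from a reference were not run. No paired analysis was possible because the table gives group means, and no replicate could be left out for the same reason. Means without depth limit how far single regions with 4 cytosines can be read.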

Other observations

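A group of 9 members in 11.3 kb stood 58.3 kb downstream of Mycn, with medians of 37.4% in cKO and 70.2% in Ctrl, and a CHH loss lay within 1 kb of 5 of them. Of 9 members in 9.44 kb near Sorl1, a sorting receptor of the amyloid precursor protein, 8 had a CHH loss within 1 kb, and their medians were 54.1% in cKO and 80.3% in Ctrl. A group of 8 downstream of Cdh22 had medians of 38.2% in cKO and 70.7% in Ctrl. A group of 7 upstream of Robo3, a receptor that steers axons across the midline, had 28.0% in cKO and 70.3% in Ctrl. These groups were picked after their values were seen.

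Without a minimum of cytosines, 3 members with fewer than 10 followed Arhgap21 in size of difference in the authors' deposited table. The member near Dph6, with 4 cytosines, had 23.8% in cKO and 81.3% in Ctrl. That near Ptprc, the leukocyte phosphatase CD45, had 25.3% in cKO and 81.6% in Ctrl over 6 cytosines, and that near Creb5 had 25.03% in cKO and 80.9% in Ctrl over 8. A CHH region lower in cKO overlapped the Creb5 member, at 1.66% in cKO and 6.58% in Ctrl.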
